A study of Mus musculus with 8 samples.

Results

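The miRNAs described here are 7 that are known from adipocyte differentiation or metabolism, out of the 611 mouse miRNAs on the array. They are mmu-miR-378, mmu-miR-193, mmu-miR-193b, mmu-miR-365, mmu-miR-455, mmu-miR-103 and mmu-miR-107, written without the species prefix where they recur, taken by name, and all 7 were on the array and entered the tests. The question put to them was how their signal was divided between the fat pad and the epithelium of the pubertal mammary gland.

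The samples came from female beta actin-GFP reporter mice (FVB/n) at 5 weeks of age, in which green fluorescent protein makes the ductal tree visible for dissection, and every group carried the reporter. The fractions were cut from mammary glands 2 to 5, and 100 ng of total RNA of each sample was labelled with Cy3-pCp and hybridised to an Agilent mouse miRNA array read in a single colour. Distal stroma was measured on 3 arrays, mature ducts on 2 and terminal end buds (TEBs), the proliferating tips that lead the ducts into the fat, on 3. Nothing in the labels says whether a sample was 1 animal or a pool, so the p-values measure the spread between these samples, which may be technical. The stroma was a piece of the fat pad and not a purified cell type. The duct and TEB fractions were not purified epithelium either, and miRNAs of endothelium, red cells and fibroblasts were detected in both. Because the tissue was measured in bulk, a lower signal from fewer cells of a type and one from less RNA per cell cannot be told apart.

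The unit of every level below is the total signal of a miRNA, a background-subtracted intensity, scaled so that all arrays had an equal 75th percentile over the 108 miRNAs that passed detection on each of them. Between 23.2% and 27.7% of the mouse miRNAs were detected on an array, and the summed signal of an array was 54239 to 88828 intensity units. The scaling multiplied the duct arrays by 0.75 and 0.80, the stroma arrays by 1.02 to 1.36 and the TEB arrays by 0.95 to 1.05. The dissection was checked on miRNAs of other cells. None of 8 epithelial markers (the miR-200 family, miR-205, miR-183 and miR-96) was detected on any stroma array, where their summed signal was 0 to 6.0, against 2160 to 2391 in ducts and 2050 to 2190 in TEBs. No mRNA was measured, so adipocyte genes could not be checked in the stroma.

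Adipocytes fill most of the mammary fat pad, and the ducts grow into it at puberty. miRNAs are short RNAs that bind messenger RNAs through the bases near their 5′ end, the seed, and lower their translation or stability. miR-193b and miR-365 are known as regulators of brown fat differentiation and miR-455 as an inducer of it. miR-378 is encoded inside the gene of PGC-1β, a coactivator of mitochondrial metabolism, and takes part in lipid metabolism, while miR-103 and miR-107 are known for their effects on adipocytes and insulin sensitivity.

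The mature sequences are shown because the members fall into families that share a seed. RefSeq's table for GRCm38.p6 held 6 of the 7 members, matched through the current arm name of each older array name. The seed, bases 2 to 8 from the 5′ end, is in capitals.
miR-193: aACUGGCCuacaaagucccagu
miR-193b: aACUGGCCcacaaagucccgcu
miR-365: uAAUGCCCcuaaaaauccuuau
miR-455: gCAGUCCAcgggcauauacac
miR-103: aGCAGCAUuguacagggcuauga
miR-107: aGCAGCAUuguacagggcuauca
These 6 sequences carry 4 seeds. miR-103 and miR-107 share a seed and 22 of 23 bases, with the difference G22C (base of miR-103, position from the 5′ end, base of miR-107). miR-193 and miR-193b share a seed and 19 of 22 bases, with the differences U9C, A20G and G21C in the same order. Probes of such close miRNAs may share signal, so the levels of miR-103 and miR-107 are uncertain as separate quantities, and those of miR-193 and miR-193b to a lesser degree.

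The loci show which members lie close together in the genome. miR-193 lies at chr11:79712009-79712030 and a copy of miR-365 at chr11:79726467-79726488, both on the plus strand, with 14365 bases and no annotated gene between their hairpins. miR-193b lies at chr16:13449570-13449591 and the other copy of miR-365 at chr16:13453895-13453916, again on the plus strand, with 4238 bases between the hairpins. Both chr16 hairpins lie within the spans of Gm32817 and Gm53058, which are not annotated as protein-coding. The 2 copies of miR-365 are identical, so its signal cannot be assigned to either locus. The copies of miR-103 lie at chr11:35782447-35782469 within the span of Pank3 and at chr2:131288103-131288125 within Pank2, both plus strand, and miR-107 lies at chr19:34820700-34820722, minus strand, within Pank1. These are pantothenate kinase genes, which begin the synthesis of coenzyme A. miR-455 lies at chr4:63256904-63256924, plus strand, within Col27a1, a fibrillar collagen gene, and the miR-378 hairpin lies within Ppargc1b. The table gives gene spans, so exons and introns were not separated.

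All 7 members were detected on all 8 arrays. The error that the scanner software gave was 7.89% to 23.3% of the signal for miR-378 and 10.7% to 22.3% for miR-455, and 7.80% to 11.1% for the other members.

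Of the members, 6 were higher in stroma than in ducts and than in TEBs, and the remaining member, miR-455, was higher in TEBs than in the other tissues. mmu-miR-378 had the largest difference among the members between stroma and ducts. The scaled signal was 254, 262 and 247 in stroma, 35.7 and 74.3 in ducts, and 113, 59.0 and 78.4 in TEBs. The stroma arrays lay close together and above every epithelial array, whereas the duct arrays differed from each other and overlapped with the TEB arrays. In the limma fit, stroma exceeded ducts by 2.30 ± 0.37 (log2 difference ± SE, 3 against 2 arrays), a 4.93-fold difference with an adjusted p of 0.0048, and this was the highest of the 167 signed differences tested. Stroma exceeded TEBs by 1.66 ± 0.33, a 3.15-fold difference (limma adjusted p = 0.0054). TEBs and ducts differed by 0.65 ± 0.37 on the log2 scale, which did not pass (limma adjusted p = 0.21) and was 0.12 without duct replicate 1, 1.17 without duct replicate 2 and 0.40 without TEB replicate 1. The stroma minus duct difference was 2.83 without duct replicate 2 and 1.77 without duct replicate 1, and passed in both cases.

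The opposite strand of the same hairpin, miR-378*, followed miR-378. On this strand the scaled signal was 91.0, 99.9 and 78.6 in stroma, 16 and 26.9 in ducts, and 40.5, 22.5 and 30.5 in TEBs. It was the next in rank for stroma over ducts, with a log2 difference of 2.11 ± 0.31 (limma adjusted p = 0.0038), and stroma exceeded TEBs by 1.56 ± 0.28 (limma adjusted p = 0.0036). It was detected on 1 of the 2 duct arrays and on all others. Of the other opposite strands, miR-193* and miR-455* were on the array and were not detected on any of the 8 arrays.

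mmu-miR-193b, a regulator of brown fat, had a scaled signal of 1094, 1178 and 872 in stroma, 331 and 417 in ducts, and 541, 379.8 and 445 in TEBs. Every stroma array was above every epithelial array, and the TEB and duct arrays overlapped. Stroma exceeded ducts by 1.48 ± 0.21 on the log2 scale, or 2.80-fold (limma adjusted p = 0.0030), and TEBs by 1.21 ± 0.19, or 2.31-fold (limma adjusted p = 0.0020).

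mmu-miR-365, which has a copy near each of the miR-193 hairpins, had a scaled signal of 208, 214 and 194 in stroma, 92.6 and 105 in ducts, and 92.5, 92.2 and 89.0 in TEBs. The stroma arrays stood apart from the other 5, and the lowest duct array lay just above the highest TEB array. Stroma exceeded ducts by 1.06 ± 0.10 (2.08-fold, limma adjusted p = 0.00032) and TEBs by 1.17 ± 0.09 (2.25-fold, limma adjusted p = 7.8e-05).

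mmu-miR-193, from the other locus, had smaller differences. Its scaled signal was 303, 347 and 265 in stroma, 195 and 207 in ducts, and 163, 184 and 171 in TEBs. No tissue overlapped with another, in the order stroma, ducts, TEBs. The log2 difference was 0.59 ± 0.13 for stroma over ducts (1.51-fold, limma adjusted p = 0.022) and 0.81 ± 0.12 for stroma over TEBs (1.76-fold, limma adjusted p = 0.0016). The first was the least secure of the calls: its adjusted p was 0.066 with only the 2 tissues in the fit and 0.054 to 0.13 without stroma replicate 1, stroma replicate 2, duct replicate 1 or duct replicate 2, and the difference was -0.02 without scaling.

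The seed-sharing members of the pantothenate kinase genes were both higher in stroma. mmu-miR-103 had a scaled signal of 873, 911 and 768 in stroma, 529.5 and 528 in ducts, and 442, 531 and 482 in TEBs. Its stroma arrays were separate from the rest, and the duct values lay within the range of the TEB values. The log2 difference was 0.68 ± 0.12 over ducts (1.60-fold, limma adjusted p = 0.0079, and 0.053 without duct replicate 1) and 0.81 ± 0.11 over TEBs (1.76-fold, limma adjusted p = 0.0011). Without scaling the difference over ducts was 0.07 (limma adjusted p = 0.79).

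mmu-miR-107 had a scaled signal of 710.4, 749 and 695 in stroma, 336 and 354 in ducts, and 365, 360.4 and 345 in TEBs. The 5 epithelial arrays were within a narrow range and the stroma arrays were clear of it. The log2 difference was 1.06 ± 0.09 over ducts (2.08-fold, limma adjusted p = 0.00020) and 1.01 ± 0.08 over TEBs (2.01-fold, limma adjusted p = 8.4e-05). Without scaling the difference over ducts was 0.44 for both miR-107 and miR-365 (limma adjusted p = 0.099 and 0.11).

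mmu-miR-455 had another order. Its scaled signal was 48.3, 47.9 and 35.5 in stroma, 41.5 and 44.6 in ducts, and 85.3, 85.5 and 82.3 in TEBs. The TEB arrays were above all others, and the duct values lay within the range of the stroma values. TEBs exceeded ducts by 0.97 ± 0.15 on the log2 scale (1.96-fold, limma adjusted p = 0.012) and stroma by 1.94-fold, with a stroma minus TEB difference of -0.96 ± 0.14 (limma adjusted p = 0.0014). Stroma and ducts differed by 0.02 ± 0.15 (limma adjusted p = 0.96), a value whose sign changed without scaling and when single arrays were left out. The TEB over duct call was lost without duct replicate 1 (limma adjusted p = 0.088) and without TEB replicate 2 (0.053).

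**Figure D1:**
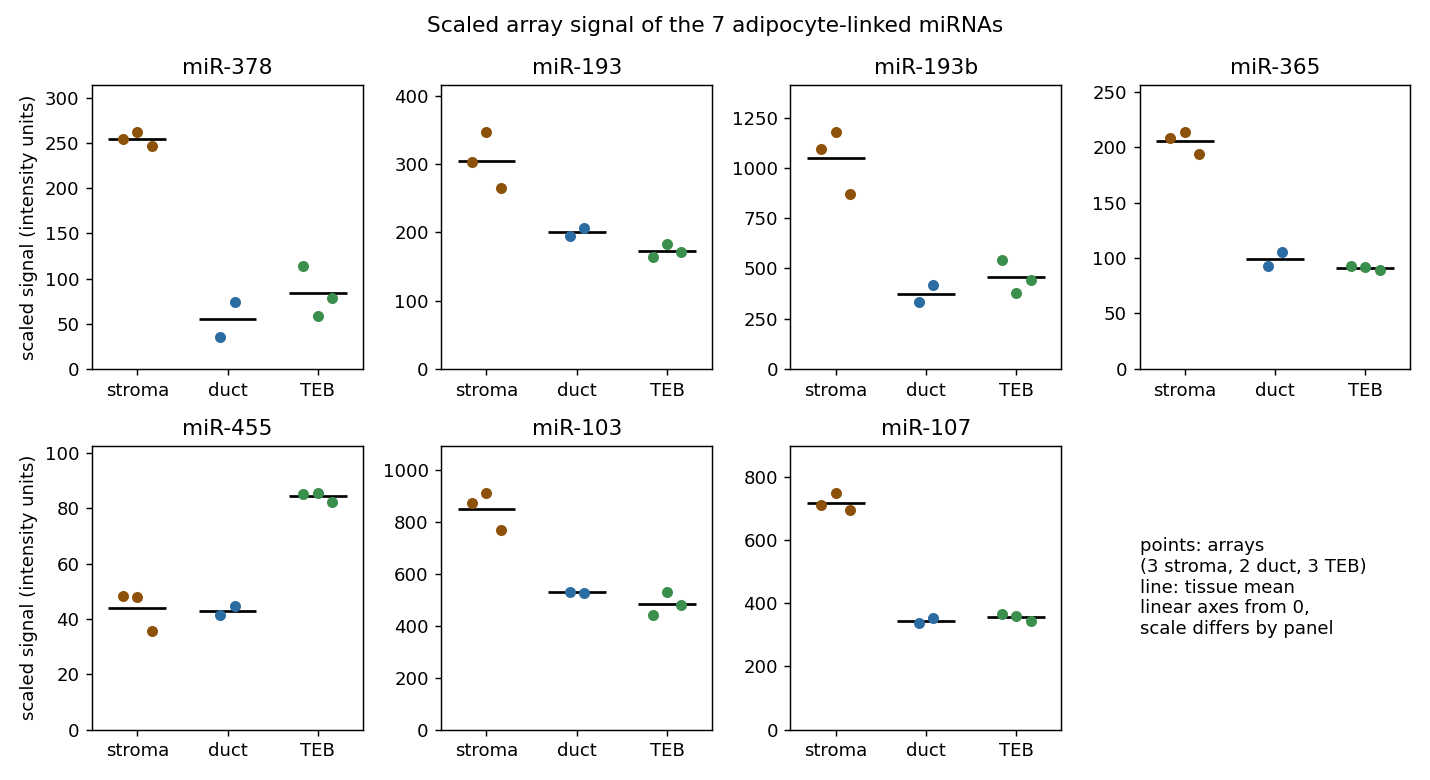
Scaled signal in intensity units (linear axes from 0, a different scale in each panel) of the 7 miRNAs on 3 stroma, 2 duct and 3 TEB arrays, with a point for each array and a line at the tissue mean. In 6 panels every stroma point is above every duct and TEB point, while for miR-455 the TEB points, at 82.3 to 85.5, are above all others; with no scaling, or with the 75th percentile of all mouse miRNAs, this separation of stroma holds in 4 panels.

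Against ducts, 6 of the 7 members were called higher in stroma and 0 lower by limma at an adjusted p of 0.05, where 21.6% of the 167 tested miRNAs were called, 12% higher in stroma and 9.58% higher in ducts. Their median log2 difference was 1.06, against 0.09 over all tested. The numbers of calls in each direction depended on the scaling: 20 higher and 16 lower in stroma here, 8 and 11 with the 75th percentile of all mouse miRNAs, and 4 and 52 with no scaling. With no scaling 2 members, miR-378 and miR-193b, were called. The arrays of stroma and ducts did not overlap for the 6 members, all higher in stroma, where 22.8% of tested miRNAs were without overlap and higher in stroma and 19.8% without overlap and higher in ducts. Among members, miR-378 was 1st of 167 in the order of the signed difference, from the highest in stroma down, miR-193b 6th, miR-107 8th, miR-365 9th, miR-103 22nd, miR-193 27th and miR-455 93rd.

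Against TEBs, 6 members were called higher in stroma and miR-455 lower, where 64.7% of tested miRNAs were called, 44.3% higher in stroma and 20.4% higher in TEBs. None of the 7 overlapped between the arrays of stroma and TEBs, where 48.5% of tested miRNAs were without overlap and higher in stroma and 23.4% without overlap and higher in TEBs. The members' median was 1.01, against 0.28 over all tested. The 6 members ranked between 21st and 46th in the same order. Calls numbered 74 higher and 34 lower in stroma, 28 and 38 with the 75th percentile of all mouse miRNAs, and 41 and 41 with no scaling. With the 75th percentile of all mouse miRNAs 2 members, miR-378 and miR-455, were called in this comparison.

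Between TEBs and ducts, 1 member was called, miR-455, where 24.6% of tested miRNAs were called, 11.4% higher in TEBs and 13.2% higher in ducts. Its arrays did not overlap, as for 22.2% of tested miRNAs that were higher in TEBs, and those of miR-193 and miR-365 did not overlap in the other direction, as for 43.1%. The other 6 had log2 differences of -0.22 to 0.65 with limma adjusted p of 0.21 to 0.70, which does not show that their levels were alike. The calls split as 19 higher and 22 lower in TEBs, 24 and 6 with the 75th percentile of all mouse miRNAs, 12 and 63 with no scaling, and 31 and 14 with quantile normalization.

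Requiring both comparisons, 6 members passed as higher in stroma than in ducts and in TEBs, among 19 such miRNAs, or 11.4% of those tested, and miR-455 was among the 10.2% that were higher in TEBs than in both. No member was among the 8.38% that were lower in stroma than in both. The 3 comparisons share arrays, so these counts are not separate observations.

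**Figure D2:**
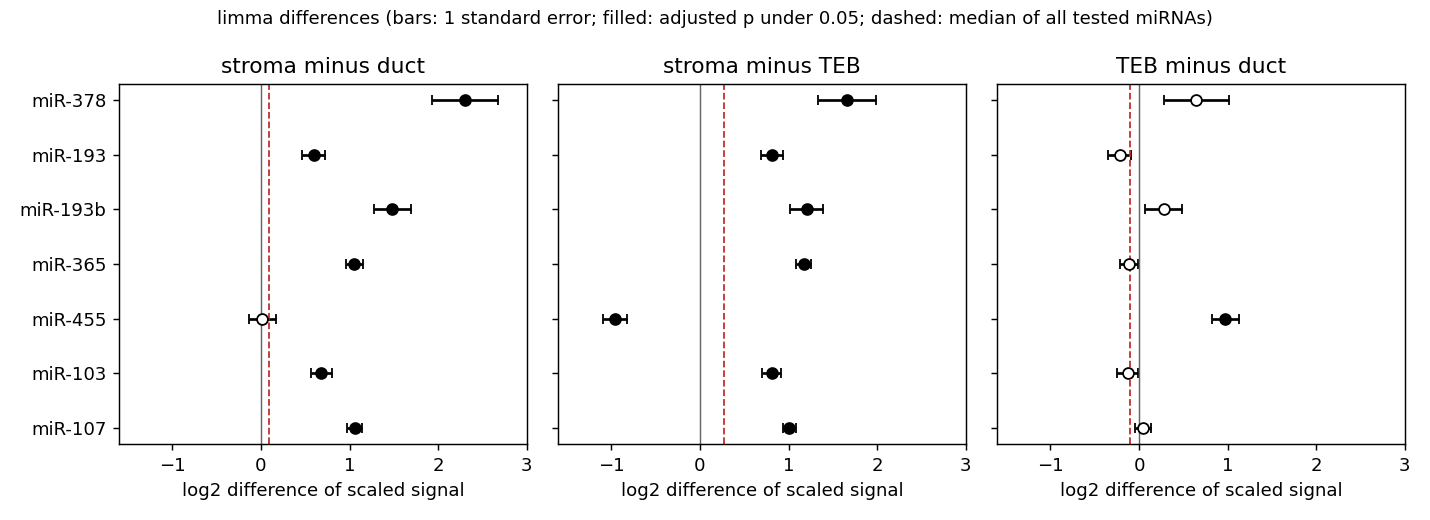
Log2 difference of scaled signal from limma for each member in the 3 comparisons, with bars of 1 SE, filled points where the adjusted p was under 0.05 and a dashed line at the median of all tested miRNAs (0.09, 0.28 and -0.10). The 6 members other than miR-455 are to the right of the line in both stroma comparisons; without scaling the miR-193 stroma minus duct value was -0.02, against a median of -0.50.

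The members were also placed against the median of all tested miRNAs. A factor for each array shifts all miRNAs alike, so this position is fixed by construction, apart from signals at the floor, over the main scaling, the 75th percentile of all mouse miRNAs and no scaling, and it can move only with quantile normalization and the deposited table. The median stroma minus duct difference was 0.09 here, 0.25 with the 75th percentile of all mouse miRNAs, -0.50 with no scaling, 0.12 after quantile normalization and 0.09 in the values the authors deposited as a normalized table. Relative to that median, miR-378 was higher in stroma than in ducts by 2.19 to 2.46 over these settings, miR-193b by 1.3 to 1.39, miR-107 by 0.95 to 0.99, miR-365 by 0.94 to 1.08, miR-193 by 0.48 to 0.68 and miR-103 by 0.38 to 0.59. For stroma minus TEB the corresponding ranges were 1.38 to 1.56 for miR-378, 0.93 to 1.10 for miR-193b, 0.89 to 1.13 for miR-365, 0.73 to 0.97 for miR-107, 0.54 to 0.70 for miR-193 and 0.53 to 0.76 for miR-103. miR-455 was -1.23 to -1.0 in that comparison and 0.99 to 1.12 above the median in TEBs against ducts. These values describe position among the tested miRNAs, were not tested and do not show stability under a change of scaling factor.

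**Figure D3:**
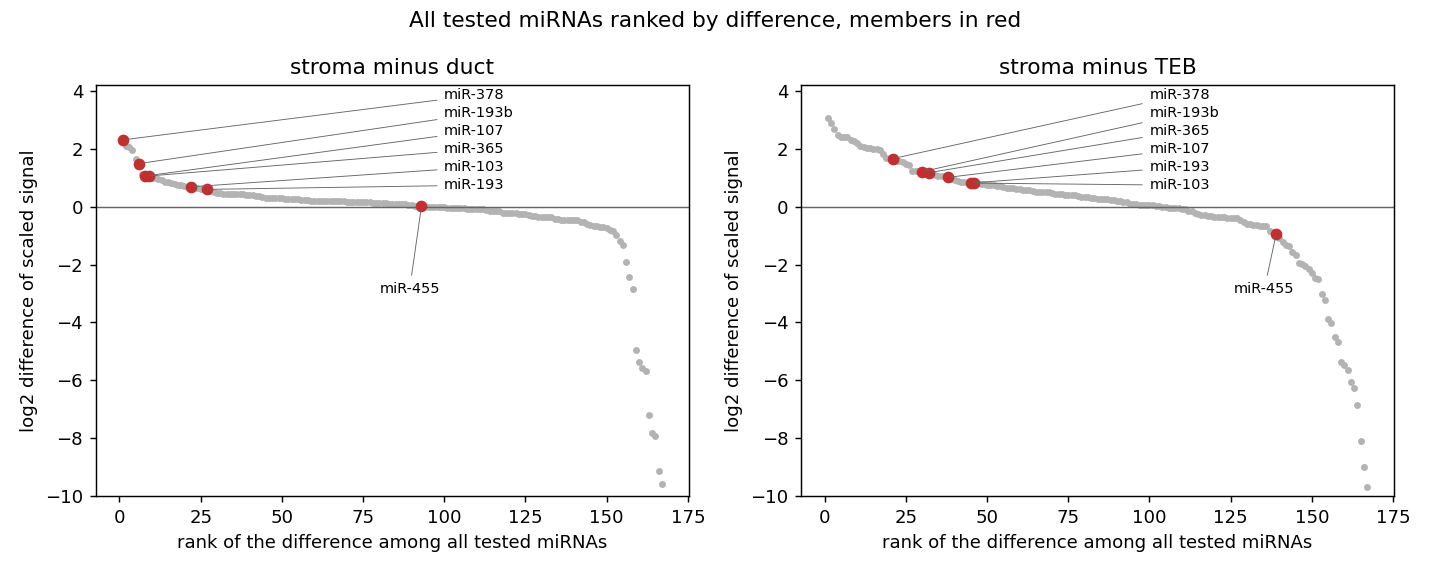
Log2 difference of scaled signal of all 167 tested miRNAs (grey) ranked from the highest, for stroma minus duct and stroma minus TEB, with the members in red. miR-378 is 1st in the left panel, 5 more members are within the 27 highest, and miR-455 is 93rd there and 139th in the right panel; signs are those of the main scaling, and without scaling miR-193 in the left panel was at -0.02.

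Ducts and TEBs were also pooled and are called epithelium, although both fractions held other cells. The 6 members had every stroma array above all 5 duct and TEB arrays, where 20.4% of tested miRNAs did. The stroma minus epithelium differences were 1.91 for miR-378, 1.32 for miR-193b, 1.12 for miR-365, 1.03 for miR-107, 0.76 for miR-103 and 0.73 for miR-193 on the log2 scale. Each had an exact permutation p of 0.0179 (two-sided, 3 against 5 arrays), the smallest that 56 arrangements allow, and an adjusted p of 0.071 over the 167 miRNAs. By this exact test 0 members and 0% of all tested miRNAs passed after adjustment. The 6 were already at the smallest p, so their adjusted p was set by how many other miRNAs reached it. Missing the threshold thus says nothing about these 6, for or against a difference. By the exact test 6 members and 56 of all tested miRNAs had an unadjusted p under 0.05, and limma called the same 6 in both stroma comparisons. For miR-455 the difference was -0.57 (exact permutation p = 0.125, adjusted 0.23).

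All 8 arrays were on 1 slide, in 2 rows that each held all 3 tissues. Row 1 held stroma replicate 1, duct replicate 1 and TEB replicates 1 and 2. Row 2 held stroma replicates 2 and 3, duct replicate 2 and TEB replicate 3. Each difference within a row thus had a single array on 1 or both sides and was not tested. Within row 1 the 6 members were higher in stroma by 0.64 to 2.83 over ducts and by 0.81 to 1.64 over TEBs on the log2 scale. Within row 2 the ranges were 0.55 to 1.77 and 0.80 to 1.70. miR-455 was higher in TEBs than in ducts by 1.04 and 0.88 in the 2 rows.

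Signals of other cell types also differed between the fractions. The endothelial miRNA miR-126-3p was 2765 to 3863 in stroma, 1927 and 2061 in ducts and 1315 to 1650 in TEBs, higher in stroma over both (limma adjusted p = 0.022 and 0.00096), while the other endothelial marker was not detected. The summed red cell markers (3 of 3 detected) were 2018 to 3622 in stroma, 2617 and 3320 in ducts and 1385 to 1923 in TEBs. The leukocyte markers (2 of 5 detected, with 3 detected on no array) were 563 to 679, 361 to 384 and 296 to 450. Against TEBs, all 3 red cell markers and the leukocyte miR-223 were called higher in stroma (limma adjusted p = 0.020 to 0.029), where 44.3% of tested miRNAs were. The leukocyte miR-142-3p was not called there, and none of these markers passed between stroma and ducts. The fibroblast and smooth muscle markers (4 of 5 detected) summed to 2467 to 2964 in stroma, 3427 and 3512 in ducts and 3160 to 3779 in TEBs. Of these 4, miR-199a-5p and miR-214 were lower in stroma than in ducts, and both and miR-199a-3p were lower than in TEBs, whereas miR-143 was higher in stroma than in TEBs (0.40 ± 0.13, limma adjusted p = 0.035). The muscle markers (3 of 4 detected) summed to 31.2 to 60.2 in stroma, 56.1 and 179 in ducts and 17.1 to 89.5 in TEBs. Of those detected, miR-1 was on no stroma array, whereas miR-133a and miR-133b were each detected on 1 of the 3 stroma arrays. The part of these cells in the members' differences was not tested.

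The other miRNAs that are linked to fat were taken from 3 lists written for this work. Of 12 tested miRNAs known to promote white fat differentiation, 1 was higher in stroma than in ducts (miR-30e), 1 was lower (miR-210), where 12% and 9.58% of all tested were, and their median log2 difference was 0.01 against 0.09 over all tested. Against TEBs 6 were higher and 3 lower in stroma, with a median of 0.36 against 0.28, where 44.3% and 20.4% of all tested miRNAs were called in these directions. miR-30e had a scaled signal of 171, 172 and 155 in stroma, 87.3 and 95.2 in ducts and 99.5, 87.9 and 88.8 in TEBs, and was higher by 0.86 ± 0.11 over ducts (limma adjusted p = 0.0017) and 0.85 ± 0.10 over TEBs (limma adjusted p = 0.00052). miR-210, known as a hypoxia-induced miRNA, had 22.3, 16.9 and 25.6 in stroma, 34.3 and 50.5 in ducts and 97.8, 119 and 141 in TEBs, and was highest in TEBs and lowest in stroma, without overlap between tissues.

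Of 11 tested miRNAs known to hold fat differentiation back, 0 passed by limma in either direction between stroma and ducts, where 21.6% of all tested miRNAs passed, with a median of -0.29 against 0.09 over all tested. Among the 11, miR-133a and miR-133b are also muscle markers and entered the tests only through ducts, with detection on 1 of 3 stroma arrays each. Their stroma minus duct differences of -0.66 and -0.84 thus carry little weight but stay in this median. Between stroma and ducts 3 of the 11 had an unadjusted limma p under 0.05. The methods' t-test after Benjamini-Hochberg adjustment called 2 there, miR-27b and miR-34a, named after their values were seen. Against TEBs 1 was higher in stroma (miR-130a) and 3 were lower (miR-31, miR-221 and miR-93), where 44.3% and 20.4% of all tested were. The median was -0.16 against 0.28. miR-31 and miR-221 were detected on no stroma array and entered the tests only through TEBs, so their lower calls carry little weight. miR-31 and miR-221 stay in these counts and medians. Their TEB signal was at least 1.97-fold and 1.59-fold that of stroma, with the lowest detected signal replacing stroma values below it.

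Of 8 miRNAs linked to brown fat besides the members, 4 were detected and 3 tested. miR-196a, an inducer of brown adipocytes in white fat that is encoded within a Hox cluster, was higher in stroma. The arrays read 188, 250.3 and 202 in stroma, 48.3 and 53.1 in ducts and 57.2, 52.9 and 50.6 in TEBs. It exceeded ducts by 2.06 ± 0.15 (limma adjusted p = 8.6e-05) and TEBs by 1.98 ± 0.13 (limma adjusted p = 4.0e-05). miR-30c and miR-328 were higher in stroma than in TEBs and did not pass between stroma and ducts. Of all tested miRNAs, 44.3% were called higher in stroma against TEBs and 12% against ducts.

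For each member the 3 miRNAs with the most similar log2 signal over the 8 arrays were taken by Pearson's r. These correlations are descriptions over arrays of 3 tissues, and they carry the tissue differences and the shared scaling of each array. For miR-378 they were miR-378* (r = 0.995), miR-193b (0.975) and miR-22 (0.950). For miR-193b they were miR-378* (0.991), miR-30e (0.980) and miR-378 (0.975). For miR-365 they were miR-107 (0.991), miR-30e (0.989) and miR-196a (0.988), and for miR-107 they were miR-196a (0.997), miR-30e (0.992) and miR-365 (0.991).

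The members with the smallest stroma differences had other neighbours. miR-193 was most like miR-126-3p (r = 0.992), let-7d (0.987) and miR-29c (0.987), and miR-103 was most like miR-193 (0.985), miR-29c (0.985) and miR-126-3p (0.977). Among the 6 members higher in stroma, the 15 pairs had r of 0.78 to 0.99. miR-455 had r of -0.64 to -0.31 with them. Its nearest were miR-31 (0.962), miR-188-5p (0.962) and miR-132 (0.956), all higher in TEBs than in both other tissues. These 3 were at the floor on every stroma array and had mean log2 values of 0, 0.37 and 0.31 in ducts. Their r with miR-455 thus mainly sets TEBs against the rest.

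Related members were compared without any scaling, through the log2 difference of 2 miRNAs on the same array. For miR-193 against miR-365 this difference changed by -0.40 between the 5 epithelial and the 3 stroma arrays, a smaller stroma excess of miR-193. The within-array values were 0.54, 0.70 and 0.45 in stroma, 1.07 and 0.98 in ducts, and 0.82, 0.99 and 0.94 in TEBs, without overlap. The exact permutation p was 0.0179, the smallest possible, and 0.089 after adjustment over the 5 pairs compared, and no single pair could pass with this number of arrays. miR-193 against miR-193b changed by -0.59 (exact permutation p = 0.054, adjusted 0.12), and TEB replicate 1, at -1.73, lay within the range of the stroma arrays, -1.85 to -1.72.

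The remaining pairs changed less. miR-103 against miR-107 changed by -0.27 (exact permutation p = 0.071, adjusted 0.12), miR-193b against miR-365 by 0.19 (exact permutation p = 0.32, adjusted 0.32) and miR-378 against miR-378* by 0.13 (exact permutation p = 0.27, adjusted 0.32). No pair passed after adjustment, and with this number of arrays that does not show that the members of a pair changed alike.

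**Figure D4:**
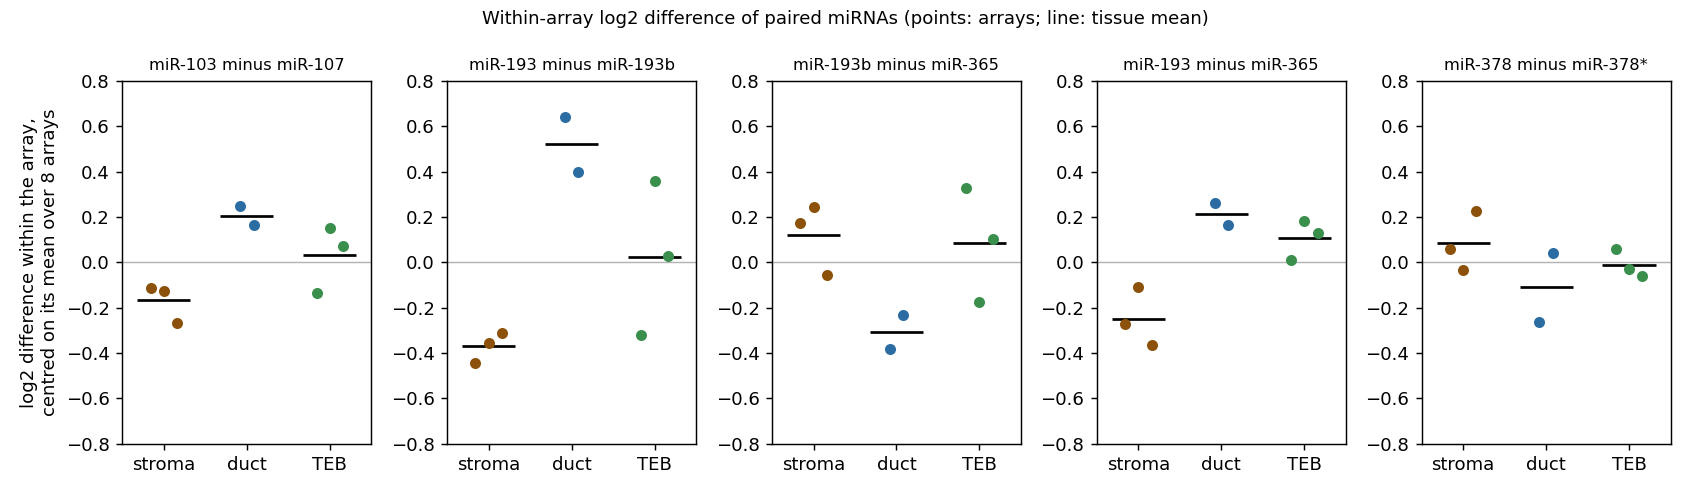
Log2 difference of 2 miRNAs on the same array, centred on its mean over the 8 arrays, for 5 pairs, with a point for each of 3 stroma, 2 duct and 3 TEB arrays and a line at the tissue mean. The stroma points of miR-193 minus miR-365 lie below all epithelial points, while those of miR-193b minus miR-365 and miR-378 minus miR-378* overlap with them; no pair passed after adjustment.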

How the data were processed

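miRNAs were profiled in stroma, ducts and TEBs on 8 arrays, and the labels gave each array's tissue. The authors deposited the total signal intensity of each miRNA, its error and a detection flag, background-subtracted by Agilent Feature Extraction 9.5.3 and not normalized between arrays, and a table of log2 values. The table's medians over all its rows were 1.48 on 6 arrays and 0.14 and 0.17 on stroma replicate 2 and duct replicate 1. Its normalization method is not given in the sources used here, and it served as an alternative. Files held 0 columns of other samples.

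From 672 features, 22 controls and 39 viral miRNAs were left out. Signals were scaled to their 75th percentile over the 108 miRNAs that every array detected, set to at least 1 and converted to log2. The tests covered 167 miRNAs, those with detection on all arrays of 1 tissue or more, and were run with limma 3.58.1 (R 4.3.3; lmFit, eBayes, no covariates), with Benjamini-Hochberg adjustment in each comparison and a threshold of 0.05. Exact permutation tests went through every arrangement of the arrays, in Python 3.11.15 with numpy 2.4.6. Tests were checked on simulated data. No counts exist, so the number of arrays limits precision.

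The members and lists were chosen with earlier results of these data known. Named were all members, their opposite strands, the 3 miRNAs most correlated with each, and list miRNAs past the threshold against both tissues or extreme between stroma and ducts. Other lists held white fat, fat-inhibiting, brown fat and cell type marker miRNAs, some in more than 1 list. Alternatives were other scalings, floors, filters, covariates and tests, and leaving out each array.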

Additional observations from a re-analysis of the deposited data

How the results depend on the processing

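Of 504 recomputed member differences, 457 kept their direction and their side of the threshold (or, untested, stayed within the replicate spread), 22 lost the call, 14 changed sign and 11 moved within a slide row. With the 75th percentile of all mouse miRNAs, calls were 19 for stroma minus duct and 66 for stroma minus TEB, with 2 members in the latter, and TEB minus duct turned to 0.33 for miR-193, 0.44 for miR-365 and 0.42 for miR-103. With no scaling, calls were 56 for stroma minus duct, with 2 members, and 75 for TEB minus duct, with 0 members (limma; miR-455 had an adjusted p of 0.084). There the stroma minus duct difference was -0.019 for miR-193 and -0.60 for miR-455, and TEB minus duct was -0.086 for miR-193b and -0.32 for miR-107. TEB minus duct was 0.043 for miR-193 and 0.0031 for miR-365 after quantile normalization, and 0.041 for both in the deposited log2 table. TEB minus duct gave 18 calls with no detection filter, where limma's variance estimate was unreliable because most residual variances were 0, and 12 by the methods' t-test after Benjamini-Hochberg adjustment, by which miR-378 (0.055) and miR-193 (0.12) missed the threshold in stroma minus duct. The cause was not tested.

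Leaving out single arrays gave 22 to 40 calls for stroma minus duct and 5 to 45 for TEB minus duct, against 36 and 41 with all arrays. TEB minus duct had 7 without duct replicate 1, 25 without duct replicate 2 and 5 without TEB replicate 2, and 0 to 1 members. For miR-455, stroma minus duct ran from -0.060 to 0.16, at -0.060 without stroma replicate 1, -0.054 without stroma replicate 2 and -0.037 without duct replicate 1. With duct replicates left out, the lone duct array was assumed to vary like the others.

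The labels do not say whether equal replicate numbers mark the same mouse, and the arrays could not settle it. Deviations from the tissue means correlated with a mean r of -0.10 over 7 same-number pairs (-0.51 to 0.36) and 0.05 over 14 others. The deviations of the 2 duct arrays mirror each other exactly, so these r values are tied to each other by construction. With the replicate number as a block, TEB minus duct had 16 calls and the member calls were as in the unblocked fit.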
